A study of Rattus norvegicus with 9 samples.

Results

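Transcription factors other than the Hox proteins that carry positional identity or mark mesenchymal cells were followed in cultured rat fibroblasts. They were taken as the rows of the deposited tables whose gene symbol stood in a fixed list of Irx, Alx, Tbx, Pitx, Lhx, Msx, Meis, Pbx, Prrx, Fox and related genes. Of 52 symbols listed, 51 were found among 32883 genes, and the level of *Foxf2* was not analysed here. RNA was sequenced in 9 libraries of wild-type cells, with 3 each from the epineurium of the sciatic nerve (Fb-Epn), the nerve parenchyma inside it (Fb-Par) and abdominal skin (Fb-Skn). All donors were adult male Lewis rats, the skin came from a different rat than the nerves, and the cells had been passaged a single time in serum-containing medium. Nerve tissue was separated by hand, the medium was changed soon after seeding in uncoated flasks, and no sorting of cells is described. All skin came from a single rat, and Fb-Epn and Fb-Par shared donors that were fewer than the 3 samples of a type, so the samples were not separate animals. Whether they were separate cultures is not stated, and p-values measure only the spread between these samples. Fb-Skn differs from both nerve-derived types in tissue, rat and body site at once, and these cannot be told apart.

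Fibroblasts of different body sites keep, in culture, part of the transcription factor pattern that their precursors had in the embryo. Homeobox, T-box and forkhead factors mark regions of the body axis, the limb and the face, while Prrx, Twist and Osr factors are general marks of embryonic mesenchyme. Mesenchyme of the trunk and limbs arises from mesoderm, whereas fibroblasts within the nerve include cells of neural crest origin.

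Levels are given as TPM (a share of all transcripts that accounts for their length), as mean ± SD with n = 3 libraries per type. Total counts per library ranged from 10084584 to 12310506. Differences were tested on counts with the quasi-likelihood test of edgeR, and a gene was called at a Benjamini-Hochberg adjusted p under 0.01. A called gene with more than a 4-fold change, which is a log2 fold change beyond 2 in either direction, is a DE gene. Errors of log2 fold changes are standard errors (SE). Of the members, 39 passed the expression filter and were tested. Among them 25 were DE genes in at least 1 comparison, 12 were called without a 4-fold change, and 2 (*Tbx3* and *Meis2*) were not called in any comparison. Of all 13273 tested genes, 13.9%, 48.8% and 37.4% fell in these classes.

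In Fb-Epn against Fb-Skn, 15 tested members were called higher in Fb-Epn and 18 lower, while 23% and 20.9% of all 13273 tested genes were. DE genes made up 10 higher and 10 lower members, against 6.22% and 2.22% of all genes. In Fb-Par against Fb-Skn, 13 members were called higher in Fb-Par and 18 lower (23.2% and 22.4% of all genes), with 11 and 10 DE genes (5.86% and 2.67% of all genes). The nerve-derived types differed in fewer members. In Fb-Epn against Fb-Par, 13 members were called higher in Fb-Epn and 9 lower (20.2% and 18.6% of all genes), with 4 and 3 DE genes (4.09% and 2.39% of all genes). The median absolute log2 fold change of the tested members was 2.13 in Fb-Epn against Fb-Skn, 2.16 in Fb-Par against Fb-Skn and 0.81 in Fb-Epn against Fb-Par, where all genes had 0.33, 0.34 and 0.28. Setting members at 0 in a type to their lower bound could not move these medians. Each such bound lay above the median in the comparisons with Fb-Skn, and none applied in Fb-Epn against Fb-Par. With scaling by library size only, the share of all called genes that were higher in Fb-Epn against Fb-Skn moved from 52.3% to 63.7%, and in Fb-Par against Fb-Skn from 50.8% to 61.9%. The 3 comparisons share libraries and are not independent.

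Of the 25 DE members, 12 had their highest mean in Fb-Skn, 7 in Fb-Par and 6 in Fb-Epn. Over all DE genes these shares were 21.0%, 35.7% and 43.3%.

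**Figure D1:**
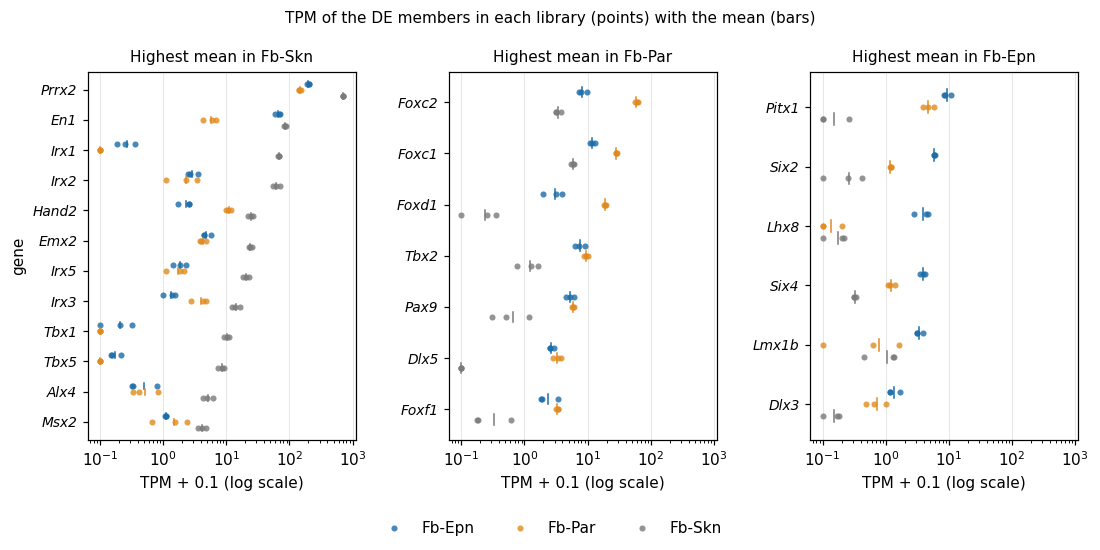
TPM of the 25 DE members on a log axis after adding 0.1, with 1 point per library, a bar at the mean of each type, and a panel for the type with the highest mean. *Irx1*, *Tbx1* and *Tbx5* lie near 0 in both nerve-derived types, *Dlx5* lies at 0 in Fb-Skn, and *En1* is low in Fb-Par alone.

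Markers of other cell types also moved with the fibroblast types. The gene called most abundant in a list below has the highest mean over all 9 libraries and need not lead in each type. Fibroblast markers were abundant in every library, with *Col1a1* most abundant at 15869 ± 196 for Fb-Epn, 13724 ± 315 for Fb-Par and 21077 ± 449 for Fb-Skn, and 3 of 7 were called higher and 4 lower in Fb-Epn than Fb-Skn. In Fb-Epn against Fb-Par, and in Fb-Par against Fb-Skn, 4 were called higher and 3 lower. Of 11 Schwann cell markers, 9 were called higher in Fb-Epn than Fb-Skn, 10 higher in Fb-Par than Fb-Skn, and 10 lower in Fb-Epn than Fb-Par. Their summed TPM was 590.3, 572 and 594 in Fb-Epn, 828, 820.0 and 839 in Fb-Par, and 274, 285 and 289.9 in Fb-Skn. Most of this sum came from *Pmp22*, which fibroblasts also express (380.4 ± 16.5 for Fb-Epn, 543 ± 11.1 for Fb-Par and 269.6 ± 8.66 for Fb-Skn). All 8 macrophage markers were called higher in Fb-Epn than in both other types and higher in Fb-Par than Fb-Skn. Their summed TPM was 328, 328 and 351 in Fb-Epn, 101, 102 and 99.4 in Fb-Par, and 26.1, 28.1 and 28.6 in Fb-Skn, with *Cd68* most abundant (153 ± 7.42, 27.8 ± 2.62 and 7.87 ± 1.14). Nerve-derived cultures thus held more RNA of Schwann cell and macrophage markers than Fb-Skn, in opposite order between Fb-Epn and Fb-Par.

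Mural cell markers summed to 110.3, 113 and 110.2 TPM in Fb-Epn, 555, 583 and 567 in Fb-Par, and 284, 290.4 and 298 in Fb-Skn, with *Mcam* most abundant (63.4 ± 2.79, 241 ± 5.09 and 138 ± 5.68). Of these 8 markers, 5 were called higher and 3 lower in Fb-Epn than Fb-Skn, 1 higher and 5 lower in Fb-Epn than Fb-Par, and 7 higher in Fb-Par than Fb-Skn. Of 7 perineurial markers 4 were tested. In Fb-Epn against Fb-Skn 2 of these were called higher and 1 lower, in Fb-Epn against Fb-Par 3 higher and 1 lower, and in Fb-Par against Fb-Skn 1 higher and 2 lower. Their summed TPM was 236, 239 and 240.3 in Fb-Epn, 397, 395 and 389.5 in Fb-Par, and 169, 186 and 177 in Fb-Skn, and *Krt19* had at most 3 counts in every library. The perineurial marker most abundant over all libraries, *Ntn4*, stood at 302 ± 7.31 in Fb-Par against 26.1 ± 2.13 in Fb-Epn and 56.7 ± 3.19 in Fb-Skn.

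Endothelial markers were scarce, at 15.6, 16.3 and 15.9 summed TPM in Fb-Epn, 11.4, 11.8 and 10.4 in Fb-Par, and 1.31, 1.60 and 1.00 in Fb-Skn. Their most abundant gene was *Tek* (8.37 ± 0.373, 10.2 ± 0.552 and 1.20 ± 0.261). Of 4 tested, 4 were called higher in Fb-Epn than Fb-Skn, 2 higher in Fb-Epn than Fb-Par, and 2 higher in Fb-Par than Fb-Skn. Adipocyte markers summed to 44.7, 54.6 and 58.9 TPM in Fb-Epn, 22.7, 22.0 and 23.6 in Fb-Par, and 1.28, 1.45 and 1.26 in Fb-Skn, with *Fabp4* most abundant (51.4 ± 7.05, 16.4 ± 0.580 and 0.498 ± 0.165), and *Cidec* had at most 3 counts. Both tested adipocyte markers were called higher in Fb-Epn and in Fb-Par than in Fb-Skn, and they split 1 higher and 1 lower between Fb-Epn and Fb-Par. Melanocyte markers summed to 13.6, 13.8 and 13.8 TPM in Fb-Epn, 14.4, 12.2 and 13.4 in Fb-Par, and 7.13, 6.86 and 9.33 in Fb-Skn, mostly from *Mitf* (10.9 ± 0.0549, 10.3 ± 0.551 and 5.60 ± 0.601), while *Tyr* and *Tyrp1* had at most 3 counts in every library. Of 2 tested melanocyte markers, 1 was called higher in Fb-Epn and in Fb-Par than in Fb-Skn and 0 differed between Fb-Epn and Fb-Par.

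Keratinocyte markers summed to at most 4.67 TPM in any library, with *Krt10* most abundant (2.32 ± 0.205, 3.53 ± 0.430 and 2.51 ± 0.520), and the only tested one was not called. *Krt5*, *Krt15* and *Krt1* had at most 3 counts in every library. Skeletal muscle markers reached at most 0.738 summed TPM, with *Chrna1* most abundant over all libraries and *Myod1*, *Myf5*, *Myog*, *Actc1* and *Pax7* at or under 3 counts. In bulk samples, fewer cells of a type and less RNA per cell cannot be told apart. The part of these other cell types in the differences of the members below was not tested.

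The Iroquois (Irx) genes encode homeodomain factors that pattern the limb, heart and nervous system and lie in 2 gene clusters. All 4 that were tested were DE genes higher in Fb-Skn than in either nerve-derived type, in every alternative setting for *Irx1*, *Irx2* and *Irx5*. *Irx1* (ENSRNOG00000033609, chromosome 1, 33910912 to 33916741, positions on rn6) had a TPM of 0.255, 0.150 and 0.0839 in Fb-Epn, 0 in every Fb-Par library, and 65.7, 69.2 and 67.5 in Fb-Skn. The counts behind it were 3, 2 and 1 in Fb-Epn, 0 in every Fb-Par library, and 839, 772 and 759 in Fb-Skn. *Irx1* was thus near absent from both nerve-derived types, with no overlap with Fb-Skn. Its ratio of Fb-Skn to Fb-Epn was 458 (210.1 to 1249) (exact 95% counting interval, adjusted p = 1.8e-13, edgeR), and Fb-Par was at least 296-fold below Fb-Skn, against a floor of 3 counts per library (adjusted p = 1.4e-13, edgeR).

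*Irx2* (ENSRNOG00000012742, chromosome 1, 33271977 to 33275540), the neighbour of *Irx1*, had a TPM of 2.51, 3.46 and 2.35 in Fb-Epn, 1.02, 2.22 and 3.37 in Fb-Par, and 60.5, 55.6 and 69.5 in Fb-Skn. The 3 Fb-Skn libraries lay far above all 6 nerve-derived libraries, which overlapped each other. The log2 fold change stood at -4.60 ± 0.22 in Fb-Epn against Fb-Skn (adjusted p = 2.1e-10, edgeR) and -4.97 ± 0.23 in Fb-Par against Fb-Skn (adjusted p = 1.2e-10, edgeR). In the other cluster, *Irx5* (ENSRNOG00000011180, chromosome 19, 16415636 to 16421191) had a TPM of 2.16, 1.76 and 1.31 in Fb-Epn, 0.988, 2.02 and 1.75 in Fb-Par, and 20.6, 18.0 and 22.5 in Fb-Skn. Again only Fb-Skn stood apart, with a log2 fold change of -3.68 ± 0.21 in Fb-Epn (adjusted p = 2.1e-09, edgeR) and -3.84 ± 0.22 in Fb-Par (adjusted p = 1.4e-09, edgeR), each against Fb-Skn. *Irx3* (ENSRNOG00000011533, chromosome 19, 15838714 to 15840990) differed among all 3 types, with a TPM of 1.27, 1.46 and 0.879 in Fb-Epn, 4.19, 4.71 and 2.68 in Fb-Par, and 16.5, 12.2 and 13.4 in Fb-Skn. No libraries of different types overlapped, and the order was Fb-Skn, Fb-Par, Fb-Epn. Its log2 fold change stood at -3.66 ± 0.27 in Fb-Epn against Fb-Skn (adjusted p = 3.7e-08, edgeR), -1.65 ± 0.30 in Fb-Epn against Fb-Par (adjusted p = 0.00036, edgeR) and -2.01 ± 0.24 in Fb-Par against Fb-Skn (adjusted p = 4.2e-06, edgeR). The last value sits at the 4-fold limit and was -1.81 without Fb-Par replicate 3 and -1.86 without Fb-Skn replicate 1. *Irx4* and *Irx6*, the remaining genes of the clusters, had 0 counts in every library.

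**Figure D2:**
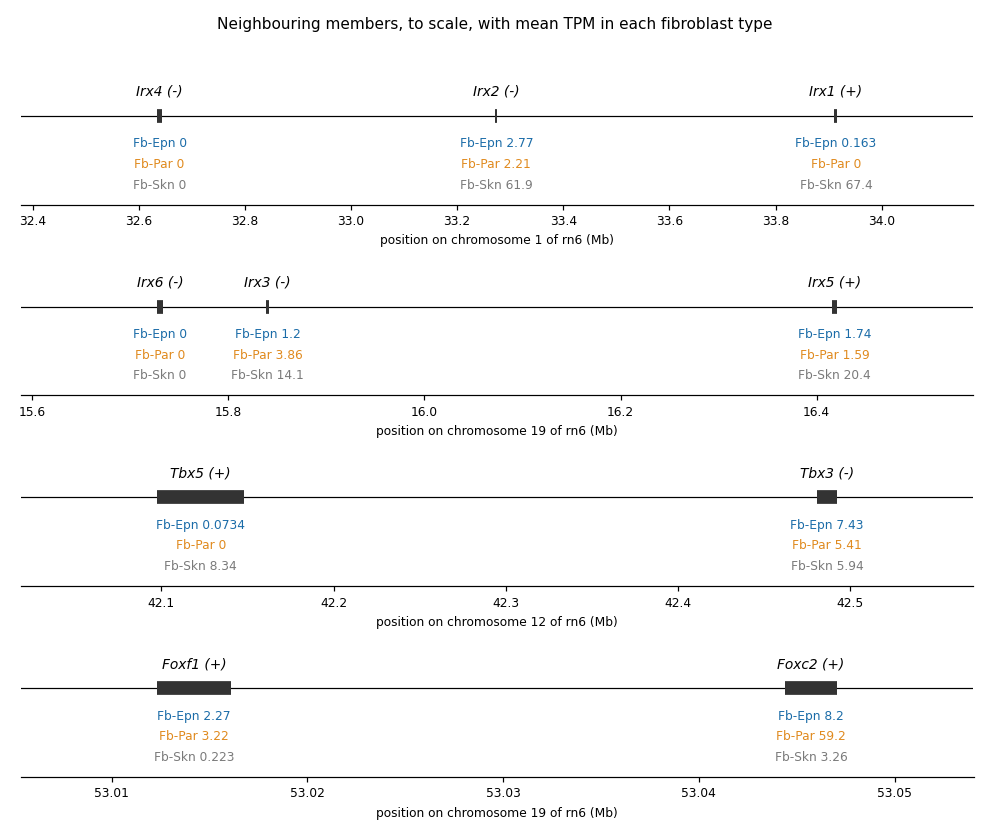
Positions of neighbouring members on rn6, to scale in Mb with gene bodies as dark blocks and strand in brackets, and the mean TPM of each type (n = 3) under each gene. *Irx1* and *Irx2* were high in Fb-Skn beside *Irx4* at 0, and *Irx3* and *Irx5* were highest in Fb-Skn beside *Irx6* at 0, while *Tbx5* and *Tbx3* differed in level and order and *Foxf1* and *Foxc2* in level.

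T-box factors pattern the limbs, the heart and the pharyngeal region. *Tbx5* (ENSRNOG00000001399, chromosome 12, 42097626 to 42148146), which specifies the forelimb and the heart, had a TPM of 0.114, 0.0503 and 0.0562 in Fb-Epn, 0 in every Fb-Par library, and 7.39, 9.06 and 8.57 in Fb-Skn. *Tbx1* (ENSRNOG00000001892, chromosome 11, 86552022 to 86560969), the pharyngeal arch factor, had a TPM of 0.215, 0 and 0.106 in Fb-Epn, 0 in every Fb-Par library, and 11.1, 10.2 and 9.10 in Fb-Skn. Both were present in all Fb-Skn libraries and at or near 0 in all nerve-derived ones, where 2 of the 3 *Tbx1* counts came from Fb-Epn replicate 1 and leaving it out raised the ratio. The Fb-Skn to Fb-Epn ratio was 126 (49.0 to 466) for *Tbx5* (95% counting interval, adjusted p = 1.6e-09, edgeR) and 109 (37.1 to 534) for *Tbx1* (95% counting interval, adjusted p = 6.2e-08, edgeR). In Fb-Par, *Tbx5* was at least 54.6-fold lower (adjusted p = 7.9e-10, edgeR) and *Tbx1* at least 35.2-fold lower than in Fb-Skn (adjusted p = 3.2e-08, edgeR). *Tbx2* (ENSRNOG00000003517, chromosome 10, 73279119 to 73289921), a repressor active in limb and heart, ran the other way, with a TPM of 6.18, 9.01 and 7.19 in Fb-Epn, 9.49, 10.0 and 8.78 in Fb-Par, and 0.670, 1.15 and 1.52 in Fb-Skn. Both nerve-derived types lay above Fb-Skn and overlapped each other. Its log2 fold change stood at 2.60 ± 0.31 in Fb-Epn (adjusted p = 5.3e-06, edgeR) and 2.93 ± 0.30 in Fb-Par (adjusted p = 1.2e-06, edgeR), each against Fb-Skn.

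*Tbx15*, a factor of the dermis and skeleton, was called in all 3 comparisons at 31.5 ± 1.21 TPM for Fb-Epn, 41.7 ± 1.48 for Fb-Par and 56.8 ± 2.47 for Fb-Skn. *Tbx18*, a mesenchymal and mural cell factor, was also called in all 3, at 16.8 ± 1.14, 30.9 ± 1.17 and 21.5 ± 1.97 in the same order. Neither changed by more than 4-fold. A pseudogene on the opposite strand overlaps *Tbx18*, and whether the authors' counting used strand is not given in the sources used here, so this value is uncertain. *Tbx3*, the neighbour of *Tbx5*, was measured at 7.43 ± 1.18, 5.41 ± 1.40 and 5.94 ± 1.43 TPM and its types overlapped (adjusted p = 0.47, 0.075 and 0.27 for Fb-Epn against Fb-Skn, Fb-Epn against Fb-Par and Fb-Par against Fb-Skn, edgeR). *Tbx4*, the hindlimb counterpart of *Tbx5*, had at most 6 counts in any library and *Tbx20* had 0.

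Among homeobox genes of the paired type, *Pitx1* (ENSRNOG00000011423, chromosome 17, 8878270 to 8884423), which specifies the hindlimb, had a TPM of 10.8, 8.37 and 8.48 in Fb-Epn, 5.67, 3.75 and 4.54 in Fb-Par, and 0.163, 0 and 0 in Fb-Skn. It was present in all nerve-derived libraries, highest in Fb-Epn, while only Fb-Skn replicate 1 held any counts in skin (2), and leaving it out removed them all. The ratio to Fb-Skn was 141 (38.6 to 1166) in Fb-Epn (95% counting interval, adjusted p = 1.1e-08, edgeR) and 71.5 (19.5 to 595) in Fb-Par (95% counting interval, adjusted p = 1.3e-07, edgeR). Fb-Epn exceeded Fb-Par by a log2 fold change of 0.99 ± 0.24 (adjusted p = 0.0034, edgeR). That call was lost without Fb-Epn replicate 1, Fb-Par replicate 2 or Fb-Par replicate 3 (adjusted p = 0.0236, 0.0153 and 0.0128, edgeR, over a range of 0.000414 to 0.0236 in all alternatives). *Alx4* (ENSRNOG00000000008, chromosome 3, 82548959 to 82585531), a limb and craniofacial factor, had a TPM of 0.228, 0.706 and 0.225 in Fb-Epn, 0.313, 0.724 and 0.229 in Fb-Par, and 4.83, 4.09 and 6.09 in Fb-Skn. Fb-Skn alone stood apart, and the nerve-derived types overlapped. The log2 fold change stood at -3.75 ± 0.44 in Fb-Epn (adjusted p = 4.9e-06, edgeR), which was -4.52 without Fb-Epn replicate 2, and -3.69 ± 0.44 in Fb-Par (adjusted p = 5.4e-06, edgeR), each against Fb-Skn. *Alx1* had 0 counts in every library.

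The 5 members with the highest mean TPM over all libraries were *Prrx2*, *Prrx1*, *Twist2*, *Twist1* and *Shox2*. *Prrx1* and *Prrx2* are paralogous homeobox genes of limb and craniofacial mesenchyme, and they were highest in different types. *Prrx1* (ENSRNOG00000003720, chromosome 13, 81147348 to 81214546) had a TPM of 513, 543 and 506 in Fb-Epn, 192, 195 and 191 in Fb-Par, and 173, 180.2 and 181 in Fb-Skn. *Prrx2* (ENSRNOG00000058329, chromosome 3, 9681871 to 9718051) had a TPM of 204, 189.5 and 205 in Fb-Epn, 154, 142 and 144 in Fb-Par, and 699, 705 and 716 in Fb-Skn. Every Fb-Epn library lay above the others for *Prrx1* and every Fb-Skn library for *Prrx2*, without overlap. For *Prrx1*, Fb-Epn exceeded Fb-Skn by a log2 fold change of 1.41 ± 0.04 (adjusted p = 1.3e-12, edgeR) and Fb-Par by 1.44 ± 0.04 (adjusted p = 1e-12, edgeR), while Fb-Par against Fb-Skn gave -0.04 ± 0.05 (adjusted p = 0.52, edgeR). For *Prrx2*, the log2 fold change stood at -1.97 ± 0.04 in Fb-Epn against Fb-Skn (adjusted p = 2.3e-14, edgeR), -2.42 ± 0.04 in Fb-Par against Fb-Skn (adjusted p = 2.3e-15, edgeR) and 0.45 ± 0.04 in Fb-Epn against Fb-Par (adjusted p = 6.7e-07, edgeR). *Prrx2* was therefore a DE gene in the comparison of Fb-Par with Fb-Skn only. In TPM, *Prrx1* was the more abundant paralogue in all Fb-Epn and Fb-Par libraries and *Prrx2* in all Fb-Skn libraries.

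*Shox2*, a homeobox gene of the proximal limb, had a TPM of 69.9, 71.3 and 71.2 in Fb-Epn, 46.6, 51.2 and 51.2 in Fb-Par, and 50.8, 50.1 and 47.4 in Fb-Skn. Fb-Epn lay above both other types, which overlapped each other, with a log2 fold change of 0.38 ± 0.06 against Fb-Skn (adjusted p = 0.00016, edgeR) and 0.52 ± 0.06 against Fb-Par (adjusted p = 8e-06, edgeR). The Twist genes encode basic helix-loop-helix factors of mesenchyme. *Twist1* had a TPM of 52.7, 51.8 and 47.1 in Fb-Epn, 53.6, 40.2 and 49.1 in Fb-Par, and 99.7, 92.6 and 108 in Fb-Skn, and *Twist2*, which is strong in dermis, had a TPM of 49.3, 51.4 and 54.7 in Fb-Epn, 96.5, 91.2 and 102 in Fb-Par, and 145, 133 and 151 in Fb-Skn. Fb-Skn was highest for both, Fb-Epn and Fb-Par overlapped for *Twist1*, and all types were separate for *Twist2*. *Twist1* was lower than in Fb-Skn by a log2 fold change of -1.12 ± 0.09 in Fb-Epn (adjusted p = 8.2e-08, edgeR) and -1.22 ± 0.09 in Fb-Par (adjusted p = 3.4e-08, edgeR). *Twist2* had -1.60 ± 0.07 in Fb-Epn against Fb-Skn (adjusted p = 8e-11, edgeR), -0.71 ± 0.07 in Fb-Par against Fb-Skn (adjusted p = 3.6e-07, edgeR) and -0.89 ± 0.07 in Fb-Epn against Fb-Par (adjusted p = 8.8e-08, edgeR).

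*Hand2* (ENSRNOG00000060448, chromosome 16, 36371489 to 36373546), a helix-loop-helix factor of the posterior limb bud and the heart, had a TPM of 2.47, 1.64 and 2.44 in Fb-Epn, 9.90, 10.5 and 11.8 in Fb-Par, and 25.9, 24.8 and 22.3 in Fb-Skn. The types did not overlap and rose in the order Fb-Epn, Fb-Par, Fb-Skn. Its log2 fold change stood at -3.61 ± 0.25 in Fb-Epn against Fb-Skn (adjusted p = 1.3e-08, edgeR), -2.27 ± 0.26 in Fb-Epn against Fb-Par (adjusted p = 4.3e-06, edgeR) and -1.33 ± 0.20 in Fb-Par against Fb-Skn (adjusted p = 4.8e-05, edgeR). *Osr1*, a zinc finger factor of connective tissue, was called in all 3 comparisons without a 4-fold change, at 29.2 ± 2.55 TPM for Fb-Epn, 19.3 ± 0.440 for Fb-Par and 54.4 ± 1.62 for Fb-Skn. *Tcf21*, a factor of visceral and cardiac fibroblasts, had at most 10 counts in any library and was not tested.

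*En1* (ENSRNOG00000056580, chromosome 13, 36532758 to 36537093), a homeobox gene that marks ventral limb ectoderm and a dermal fibroblast lineage, had a TPM of 68.0, 58.6 and 71.7 in Fb-Epn, 6.70, 4.23 and 5.86 in Fb-Par, and 83.1, 85.9 and 87.4 in Fb-Skn. All Fb-Epn and Fb-Skn libraries were high and all Fb-Par libraries low, without overlap. Fb-Epn exceeded Fb-Par by a log2 fold change of 3.55 ± 0.13 (adjusted p = 8.9e-12, edgeR), Fb-Par against Fb-Skn gave -4.07 ± 0.13 (adjusted p = 1.3e-12, edgeR), and Fb-Epn against Fb-Skn gave -0.51 ± 0.09 (adjusted p = 0.00025, edgeR). *Emx2* (ENSRNOG00000009482, chromosome 1, 280633938 to 280640946), which acts in the shoulder girdle and the urogenital tract, had a TPM of 4.32, 5.56 and 4.34 in Fb-Epn, 4.64, 3.93 and 3.74 in Fb-Par, and 23.5, 22.4 and 25.3 in Fb-Skn. Here Fb-Skn alone was high and the nerve-derived types overlapped, with a log2 fold change of -2.46 ± 0.12 in Fb-Epn (adjusted p = 4.5e-10, edgeR) and -2.68 ± 0.13 in Fb-Par (adjusted p = 1.9e-10, edgeR), each against Fb-Skn. *Msx2* (ENSRNOG00000018355, chromosome 17, 11683862 to 11689527), a target of BMP signalling, had a TPM of 1.01, 0.981 and 0.996 in Fb-Epn, 0.554, 2.24 and 1.42 in Fb-Par, and 3.44, 4.57 and 4.01 in Fb-Skn. Every Fb-Skn library exceeded every nerve-derived one, with a log2 fold change of -2.13 ± 0.38 in Fb-Epn (adjusted p = 0.00027, edgeR) and -1.67 ± 0.37 in Fb-Par (adjusted p = 0.0014, edgeR). The means of its relative *Msx1* had the opposite order, at 16.5 ± 3.42 TPM for Fb-Epn, 9.42 ± 1.59 for Fb-Par and 7.26 ± 1.73 for Fb-Skn. Only Fb-Epn against Fb-Skn was called for both genes. *Msx2* was not called in Fb-Epn against Fb-Par (adjusted p = 0.4, edgeR), nor *Msx1* in Fb-Par against Fb-Skn (adjusted p = 0.38, edgeR). *Msx1* was called in Fb-Epn against Fb-Skn (adjusted p = 0.0005, edgeR) and in Fb-Epn against Fb-Par (adjusted p = 0.003, edgeR). The call against Fb-Par was lost without Fb-Epn replicate 1 or 3 or Fb-Par replicate 1 or 2, with adjusted p from 0.0105 to 0.0194 (edgeR) and 0.000172 to 0.0194 over all alternatives.

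*Dlx5* and *Dlx3*, distal-less genes that act in limb and facial development, were low and almost confined to the nerve-derived types. *Dlx5* (ENSRNOG00000010905, chromosome 4, 32387741 to 32392007) had a TPM of 2.43, 2.79 and 2.41 in Fb-Epn, 3.28, 3.64 and 2.74 in Fb-Par, and 0 in every Fb-Skn library. Its counts were 17, 22 and 17 in Fb-Epn and 25, 24 and 19 in Fb-Par. No Fb-Skn library held a count, and the nerve-derived types overlapped. Fb-Epn was at least 5.33-fold above Fb-Skn (adjusted p = 7.5e-06, edgeR) and Fb-Par at least 6.70-fold (adjusted p = 3.2e-06, edgeR). *Dlx3* (ENSRNOG00000004278, chromosome 10, 82937971 to 82943348) had a TPM of 1.06, 1.61 and 1.05 in Fb-Epn, 0.904, 0.562 and 0.382 in Fb-Par, and 0.0699, 0.0801 and 0 in Fb-Skn, from at most 24 counts in a library. Both nerve-derived types lay above Fb-Skn without overlap, while Fb-Epn against Fb-Par was not called (log2 fold change 1.00 ± 0.43, adjusted p = 0.068, edgeR). The ratio to Fb-Skn was 22.4 (5.90 to 190.0) in Fb-Epn (95% counting interval, adjusted p = 9.6e-05, edgeR) and 11.1 (2.77 to 96.7) in Fb-Par (95% counting interval, adjusted p = 0.0022, edgeR). Without Fb-Par replicate 1 the latter was not called (adjusted p = 0.0128, edgeR, with 0.000742 to 0.0128 over all alternatives). *Barx1* had 0 counts in every library and *Barx2* 1 count in all.

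Of the LIM homeobox genes, *Lhx8* and *Lmx1b* were highest in Fb-Epn. *Lhx8* (ENSRNOG00000028348, chromosome 2, 260574190 to 260596777), known from facial mesenchyme and the forebrain, had a TPM of 4.53, 4.31 and 2.69 in Fb-Epn, 0.104, 0 and 0 in Fb-Par, and 0.105, 0 and 0.119 in Fb-Skn. The counts were 40, 43 and 24 in Fb-Epn, 1, 0 and 0 in Fb-Par and 1, 0 and 1 in Fb-Skn. All Fb-Epn libraries lay above the others, which were near 0, and the only Fb-Par count came from replicate 1, without which the difference from Fb-Par grew. Fb-Epn exceeded Fb-Par by a ratio of 104 (18.3 to 4143) (95% counting interval, adjusted p = 2e-06, edgeR) and Fb-Skn by 46.1 (12.5 to 386) (95% counting interval, adjusted p = 4e-06, edgeR). *Lmx1b* (ENSRNOG00000017019, chromosome 3, 12609574 to 12686869), which specifies the dorsal limb, had a TPM of 3.02, 3.86 and 2.98 in Fb-Epn, 0, 0.532 and 1.52 in Fb-Par, and 1.24, 0.354 and 1.23 in Fb-Skn. Fb-Epn was again highest without overlap, while Fb-Par and Fb-Skn overlapped. The log2 fold change in Fb-Epn against Fb-Par was 2.28 ± 0.64 (adjusted p = 0.0082, edgeR), and the one against Fb-Skn was not called (adjusted p = 0.032, edgeR). The call against Fb-Par failed in 9 of 15 alternatives, which include leaving out any single Fb-Epn library, Fb-Par replicate 1 or 2, or Fb-Skn replicate 1 or 3 (adjusted p from 0.01 to 0.0282, edgeR, and from 0.00109 to 0.0282 over all alternatives). The value was 1.66 without Fb-Par replicate 1 and 3.63 without Fb-Par replicate 3, and with a replicate block the adjusted p rose to 0.0137 (edgeR). *Lhx2* was called only in Fb-Par against Fb-Skn (0.418 ± 0.123 and 1.47 ± 0.270 TPM, 1.13 ± 0.319 in Fb-Epn). *Lhx6*, which shares its strand with an overlapping noncoding gene, and *Lhx9* had at most 3 counts in every library.

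*Six2* and *Six4* encode homeobox factors that act in muscle, kidney and craniofacial mesenchyme. *Six2* (ENSRNOG00000058827, chromosome 6, 8952572 to 8956276) had a TPM of 5.70, 5.84 and 5.78 in Fb-Epn, 1.10, 1.11 and 1.06 in Fb-Par, and 0, 0.317 and 0.157 in Fb-Skn. *Six4* (ENSRNOG00000007250, chromosome 6, 95984868 to 95998529) had a TPM of 4.07, 3.75 and 3.43 in Fb-Epn, 1.07, 1.31 and 1.01 in Fb-Par, and 0.215, 0.211 and 0.244 in Fb-Skn. Both fell from Fb-Epn over Fb-Par to Fb-Skn with no overlap of any types. For *Six4*, the log2 fold change stood at 3.91 ± 0.23 in Fb-Epn against Fb-Skn (adjusted p = 2.4e-09, edgeR), 2.16 ± 0.25 in Fb-Par against Fb-Skn (adjusted p = 4.1e-06, edgeR) and 1.74 ± 0.18 in Fb-Epn against Fb-Par (adjusted p = 1.5e-06, edgeR). For *Six2*, Fb-Epn exceeded Fb-Par by 2.40 ± 0.35 (adjusted p = 4.5e-05, edgeR) and Fb-Skn by a ratio of 34.8 (11.6 to 171) (95% counting interval, adjusted p = 8e-07, edgeR). Fb-Par exceeded Fb-Skn by a ratio of 6.51 (1.96 to 34.0) (95% counting interval, adjusted p = 0.0029, edgeR). That last call was lost without Fb-Skn replicate 1 (adjusted p = 0.0137, edgeR), with DESeq2 (adjusted p = 0.0103) and with only the 2 types compared in the model (adjusted p = 0.0137, edgeR), over a range of 0.00148 to 0.0137. Of the 3 counts in Fb-Skn, 2 were in replicate 2, and both differences from Fb-Skn grew without it.

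Of the Pax genes, which pattern the somites and the pharynx, *Pax9* (ENSRNOG00000008826, chromosome 6, 77608624 to 77621719) had a TPM of 5.09, 5.89 and 4.45 in Fb-Epn, 5.56, 6.01 and 5.71 in Fb-Par, and 1.08, 0.413 and 0.205 in Fb-Skn. Both nerve-derived types lay above Fb-Skn and overlapped each other. The log2 fold change stood at 2.95 ± 0.43 in Fb-Epn (adjusted p = 4.1e-05, edgeR) and 3.09 ± 0.43 in Fb-Par (adjusted p = 2.2e-05, edgeR), each against Fb-Skn, and 3.84 and 3.99 without Fb-Skn replicate 1. *Pax1* reached at most 15 counts, in Fb-Skn, and *Pax3* at most 3, and neither was tested.

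The forkhead members that were tested were *Foxc2*, *Foxc1*, *Foxd1* and *Foxf1*. *Foxc2* (ENSRNOG00000047446, chromosome 19, 53044379 to 53047081), a factor of vessels and paraxial mesoderm, had a TPM of 9.57, 7.89 and 7.14 in Fb-Epn, 62.1, 56.0 and 59.6 in Fb-Par, and 3.06, 3.11 and 3.62 in Fb-Skn. *Foxc1* (ENSRNOG00000017800, chromosome 17, 33947506 to 33951484), its paralogue, had a TPM of 11.0, 12.8 and 11.5 in Fb-Epn, 28.2, 28.7 and 28.1 in Fb-Par, and 5.35, 5.92 and 5.81 in Fb-Skn. *Foxd1* (ENSRNOG00000043332, chromosome 2, 28460068 to 28462488), a factor of kidney stroma, had a TPM of 1.89, 3.78 and 3.09 in Fb-Epn, 18.2, 19.7 and 19.0 in Fb-Par, and 0.152, 0 and 0.258 in Fb-Skn. All 3 were highest in Fb-Par and lowest in Fb-Skn, with no overlap between types. For *Foxc2*, the log2 fold change stood at 4.03 ± 0.11 in Fb-Par against Fb-Skn (adjusted p = 3.6e-13, edgeR), -2.84 ± 0.10 in Fb-Epn against Fb-Par (adjusted p = 4.5e-12, edgeR) and 1.19 ± 0.13 in Fb-Epn against Fb-Skn (adjusted p = 2.7e-06, edgeR). For *Foxc1*, it was 2.17 ± 0.08 in Fb-Par against Fb-Skn (adjusted p = 1.3e-11, edgeR), -1.25 ± 0.07 in Fb-Epn against Fb-Par (adjusted p = 3.1e-09, edgeR) and 0.91 ± 0.09 in Fb-Epn against Fb-Skn (adjusted p = 4.9e-07, edgeR). *Foxd1* was a DE gene in all 3 comparisons, as was *Six2*. Its ratio to Fb-Skn, where the counts were 2, 0 and 3 and leaving out replicate 3 raised it, was 124 (52.8 to 382) in Fb-Par (95% counting interval, adjusted p = 7.7e-10, edgeR) and 19.5 (8.11 to 61.2) in Fb-Epn (95% counting interval, adjusted p = 2.4e-06, edgeR), and the log2 fold change in Fb-Epn against Fb-Par was -2.67 ± 0.23 (adjusted p = 1.7e-07, edgeR).

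*Foxf1* (ENSRNOG00000049906, chromosome 19, 53012332 to 53016086), a mediator of Hedgehog signals in visceral mesenchyme, lies 28.3 kb from *Foxc2* and had a TPM of 3.32, 1.72 and 1.76 in Fb-Epn, 3.04, 3.26 and 3.34 in Fb-Par, and 0.0747, 0.0856 and 0.509 in Fb-Skn. Unlike *Foxc2*, it did not separate Fb-Epn from Fb-Par, and both lay above Fb-Skn. The log2 fold change stood at 3.18 ± 0.52 in Fb-Epn (adjusted p = 0.00012, edgeR) and 3.68 ± 0.51 in Fb-Par (adjusted p = 2.2e-05, edgeR), each against Fb-Skn, and 4.53 and 5.02 without Fb-Skn replicate 3. A microRNA gene overlaps *Foxf1* on the opposite strand, so its counts are uncertain in the same way as those of *Tbx18*.

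The Meis and Pbx factors, which bind DNA together with Hox proteins, included no DE gene. *Meis1* was called in all 3 comparisons at 23.9 ± 1.09 TPM for Fb-Epn, 17.5 ± 0.672 for Fb-Par and 30.2 ± 2.02 for Fb-Skn. *Pbx3* was called in Fb-Par against both other types, at 27.7 ± 0.995, 37.6 ± 2.61 and 22.4 ± 1.38 in the same order, but it overlaps *Mapkap1* on the opposite strand and is uncertain. *Meis3* was called in Fb-Epn against Fb-Par alone, at 29.6 ± 2.61, 22.7 ± 2.68 and 24.9 ± 3.10 (adjusted p = 0.009, edgeR). That call was lost without Fb-Epn replicate 2 or 3, Fb-Par replicate 2 or 3, or Fb-Skn replicate 1, with adjusted p from 0.0107 to 0.0492 (edgeR) and from 0.00184 to 0.0492 over all alternatives. *Meis2* was not called although its types did not overlap, at 12.4 ± 1.75, 10.1 ± 0.237 and 8.69 ± 1.08 (adjusted p = 0.024, 0.059 and 0.7 for Fb-Epn against Fb-Skn, Fb-Epn against Fb-Par and Fb-Par against Fb-Skn, edgeR).

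Of 69 further genes of the same families, 65 were found, 27 were tested and 26 had at most 3 counts in every library. In Fb-Epn against Fb-Skn, 13 were called higher and 5 lower (median log2 fold change 0.46), in Fb-Epn against Fb-Par 10 higher and 7 lower (0.19), and in Fb-Par against Fb-Skn 10 higher and 6 lower (0.52). Of all tested genes, 23% and 20.9% were called higher and lower in Fb-Epn against Fb-Skn, 20.2% and 18.6% in Fb-Epn against Fb-Par, and 23.2% and 22.4% in Fb-Par against Fb-Skn, with a median near 0 in each. The most abundant over all libraries was *Scx*, the tendon factor, at 34.3 ± 2.59 TPM for Fb-Epn, 3.14 ± 1.11 for Fb-Par and 227 ± 9.08 for Fb-Skn. Fb-Epn exceeded Fb-Par by a log2 fold change of 3.45 ± 0.15 (adjusted p = 9.8e-11, edgeR). Against Fb-Skn, the log2 fold change of *Scx* was -2.87 ± 0.09 in Fb-Epn (adjusted p = 1.1e-12, edgeR) and -6.32 ± 0.13 in Fb-Par (adjusted p = 8.2e-15, edgeR).

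*Pknox2*, a relative of the Meis factors, was high in both nerve-derived types, with means of 7.55 TPM for Fb-Epn, 6.59 for Fb-Par and 0.0338 for Fb-Skn, where only replicate 2 held any counts. Its ratio to Fb-Skn was 213 (58.8 to 1767) in Fb-Epn (95% counting interval, adjusted p = 3e-10, edgeR) and 184 (50.7 to 1526) in Fb-Par (95% counting interval, adjusted p = 4.5e-10, edgeR). *Isl1* had a mean of 1.80 TPM in Fb-Epn, at least 6.66-fold above Fb-Skn at 0 counts (adjusted p = 3.6e-05, edgeR). Its Fb-Epn level was 17.0 times Fb-Par at 0.102 TPM (6.35 to 64.1, 95% counting interval, adjusted p = 0.00016, edgeR). The Fb-Par libraries had 0.223, 0 and 0.0816 TPM of *Isl1*, so most of this low level came from replicate 1. *Foxl1* had 3.01 TPM in Fb-Par, 0.129 in Fb-Epn and 0.179 in Fb-Skn, and only replicate 1 held any counts in Fb-Epn and in Fb-Skn. The ratio of Fb-Par to Fb-Epn was 24.2 (6.33 to 206, 95% counting interval, adjusted p = 0.0006, edgeR).

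Cofactors of these transcription factors numbered 30, of which 28 were found and 25 tested. In Fb-Epn against Fb-Skn, 6 were called higher and 7 lower (median log2 fold change -0.04), in Fb-Epn against Fb-Par 5 higher and 9 lower (-0.07), and in Fb-Par against Fb-Skn 10 higher and 4 lower (0.06). The shares of all tested genes were 23% and 20.9%, 20.2% and 18.6%, and 23.2% and 22.4% in the same order. *Id3*, an inhibitor of helix-loop-helix factors, was the most abundant over all libraries at 865 ± 27.2 TPM for Fb-Epn, 797 ± 32.1 for Fb-Par and 570.0 ± 4.67 for Fb-Skn, and *Lmo3* had at most 3 counts in every library. *Eya2*, a coactivator of *Six2* and its relatives, was also low in Fb-Skn, with means of 5.85, 7.87 and 0.277 TPM for Fb-Epn, Fb-Par and then Fb-Skn. Its log2 fold change stood at 4.20 ± 0.33 in Fb-Epn (adjusted p = 5.4e-08, edgeR) and 4.61 ± 0.32 in Fb-Par (adjusted p = 1.3e-08, edgeR), each against Fb-Skn.

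*Ldb2*, which bridges LIM factors, had means of 1.45, 5.33 and 0.236 TPM for Fb-Epn, Fb-Par and then Fb-Skn. Its log2 fold change stood at 2.42 ± 0.40 in Fb-Epn against Fb-Skn (adjusted p = 0.00013, edgeR), 4.27 ± 0.36 in Fb-Par against Fb-Skn (adjusted p = 1.1e-07, edgeR) and -1.85 ± 0.27 in Fb-Epn against Fb-Par (adjusted p = 4.3e-05, edgeR). *Lmo2*, a partner of Ldb proteins, had 9.31 TPM in Fb-Epn and 1.18 in Fb-Skn, a log2 fold change of 2.84 ± 0.29 (adjusted p = 9.9e-07, edgeR). *Tle1*, a Groucho corepressor, had 12.9 TPM in Fb-Par and 3.39 in Fb-Skn, a log2 fold change of 1.79 ± 0.18 (adjusted p = 8.2e-07, edgeR). *Id4* and *Tcf4*, which act on helix-loop-helix factors, were lower in Fb-Epn than Fb-Par, at 16.1 against 94.2 TPM and 16.0 against 56.8 TPM. Their log2 fold changes were -2.54 ± 0.08 (adjusted p = 1.5e-12, edgeR) and -1.81 ± 0.08 (adjusted p = 5.2e-11, edgeR).

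Promoters from RefSeq on the build GRCr8, each 250 bases before to 50 after the gene start, were matched for 35 of the 52 symbols, *Foxf2* included. These members had a median GC content of 59.3% and a median CpG observed over expected ratio of 0.721, where all 33469 promoters had 51.7% and 0.392. The GC box GGGCGG (searched on both strands, where sites may overlap) was present in 24 of the 35, or 68.6%, against 33.1% of all promoters. The CCAAT box CCAAT was present in 19, or 54.3%, against 37.5%, and the TATA box TATAAA in 0, against 14.2%. The homeodomain core TAATTA was present in 1, or 2.86%, against 5.36%, and the E-box CAGCTG in 4, or 11.4%, against 15.1%. A match is a run of letters and not a shown site.

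The promoters of the neighbours *Irx1* and *Irx2*, both high in Fb-Skn, and of *Six2* and *Foxd1*, both DE genes in all 3 comparisons with at most 3 counts in each Fb-Skn library, are shown from 5′ to 3′ on the strand of the gene, with GC boxes and CCAAT boxes of either strand in capitals. The positions on GRCr8 are chr1:33122872-33123171, plus strand for *Irx1*, chr1:32494881-32495180, minus strand for *Irx2*, chr6:14727808-14728107, plus strand for *Six2* and chr2:31436552-31436851, plus strand for *Foxd1*. *Irx1* had 5 GC boxes and 1 CCAAT box, *Irx2* had 3 and 1, *Six2* had 6 and 0, and *Foxd1* had 1 and 2.
*Irx1*: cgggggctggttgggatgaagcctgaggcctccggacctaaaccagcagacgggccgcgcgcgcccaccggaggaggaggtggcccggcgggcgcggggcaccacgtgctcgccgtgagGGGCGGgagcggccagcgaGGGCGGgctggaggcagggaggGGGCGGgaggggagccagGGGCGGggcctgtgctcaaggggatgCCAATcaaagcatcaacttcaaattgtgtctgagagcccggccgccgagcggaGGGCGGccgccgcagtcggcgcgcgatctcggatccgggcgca
*Irx2*: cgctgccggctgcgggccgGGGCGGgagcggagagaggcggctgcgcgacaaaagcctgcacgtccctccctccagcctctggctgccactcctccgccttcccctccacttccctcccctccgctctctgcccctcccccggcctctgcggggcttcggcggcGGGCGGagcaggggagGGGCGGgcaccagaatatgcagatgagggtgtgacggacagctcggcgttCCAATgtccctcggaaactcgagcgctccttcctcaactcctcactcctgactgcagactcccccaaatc
*Six2*: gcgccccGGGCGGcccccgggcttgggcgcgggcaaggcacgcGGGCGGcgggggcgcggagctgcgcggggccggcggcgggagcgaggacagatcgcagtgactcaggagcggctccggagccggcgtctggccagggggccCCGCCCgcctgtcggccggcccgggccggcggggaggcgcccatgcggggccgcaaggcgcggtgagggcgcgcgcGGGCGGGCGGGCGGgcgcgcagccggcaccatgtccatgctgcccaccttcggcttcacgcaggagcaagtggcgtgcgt
*Foxd1*: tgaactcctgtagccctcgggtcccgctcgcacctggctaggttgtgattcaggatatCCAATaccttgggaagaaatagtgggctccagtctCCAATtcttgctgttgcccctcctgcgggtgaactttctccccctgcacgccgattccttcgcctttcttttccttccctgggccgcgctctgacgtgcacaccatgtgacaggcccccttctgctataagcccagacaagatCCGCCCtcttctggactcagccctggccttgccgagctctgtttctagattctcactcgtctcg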

How the data were processed

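Libraries were directional, made from poly(A) RNA and read as pairs of 150 bp. The authors used Trimmomatic 0.38 for trimming and HISAT2 2.1.0 for alignment to rn6. FastQC 0.11.7 and featureCounts 1.6.3 are named in the submitters' processing notes, and the annotation release and strand setting are not given in the sources used here. The authors deposited raw counts per gene for each library. The authors deposited TPM for the same genes, used here as levels only. A deposited FPKM table was not used here.

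The members and lists were chosen with earlier results of these data known. Testing of counts used edgeR 4.0.16 in R 4.3.3 (TMM factors 0.955 to 1.03, filterByExpr, quasi-likelihood F test), with all 9 libraries in 1 model, 3 contrasts between types and Benjamini-Hochberg adjustment over all 13273 tested genes. The steps were tested on simulated data. Samples were grouped by their titles. Permuting 3 against 3 libraries could not bring p below 0.1 for any gene. Replicates of a type differed by more than counting noise, so none was merged.

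Where the lower type had 0 counts throughout, the fold was taken against 3 counts per library as a lower bound. Where these libraries held up to 3 counts each, the ratio of scaled counts is given with an exact conditional binomial 95% interval. This replaced the bound first planned. No fold is given when both types were at or under this floor. Intervals and floors cover counting error only. Named genes are the DE members, the 5 most abundant members, the 3 called family relatives and cofactors with the largest absolute log2 fold change in each comparison, and the most abundant and near-absent genes of each marker list. All other members are named in counts, and where their levels are printed too, this was chosen after their values were seen. Some family relatives that the rule names are not reported here. Neighbours are members within 2 Mb. Alternatives covered RLE normalization, library size only, no filter beyond 1 count, DESeq2 1.42.0, only the 2 types compared, the replicate number as a block, and each library left out. The comparison of protein sequences was not analysed here. Tables and figures came from matplotlib 3.10.9, scipy 1.17.1, numpy 2.4.6 and pandas 2.3.3 in Python 3.11.15.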

Additional observations from a re-analysis of the deposited data

How the results depend on the processing

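All 86 called values of the members, taken over the 3 comparisons, kept their direction in each of the 15 alternatives, and 1265 of these 1290 values were still called. The calls lost were those of *Pitx1*, *Lmx1b*, *Msx1* and *Meis3* in Fb-Epn against Fb-Par and of *Dlx3* and *Six2* in Fb-Par against Fb-Skn. Of 48 member values that made a DE gene, 44 did so in every alternative, and the others were *Lmx1b* in Fb-Epn against Fb-Par and *Irx3*, *Dlx3* and *Six2* in Fb-Par against Fb-Skn. The number of members called ranged over all alternatives from 33 to 35 in Fb-Epn against Fb-Skn, 18 to 22 in Fb-Epn against Fb-Par and 30 to 32 in Fb-Par against Fb-Skn. The number of member DE genes ranged from 20 to 21, 6 to 7 and 19 to 23 in the same order. Without the filter 46 members were tested.

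The replicate numbers are shared between types, and deviations of libraries with the same number had a Pearson's r between -0.0945 and 0.0596 across genes. Whether same-numbered Fb-Epn and Fb-Par samples share a donor cannot be told from these values. With the replicate block, 85 of the 86 called values were still called, and the exception was *Lmx1b* in Fb-Epn against Fb-Par, with a log2 fold change of 2.36 (adjusted p = 0.0137, edgeR).

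The log2 fold changes of members with few counts in the lower type, such as *Dlx3*, *Lhx8*, *Pitx1*, *Six2* and *Foxd1*, are limited by depth. The cause of the lost calls was not tested.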
